A study of Mus musculus with 16 samples.

Results

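Pituitaries of 8 female mice kept on standard diet (SD) were compared, 4 mutants against 4 controls, out of 16 pituitaries in the series. The libraries were chosen by their genotype and diet labels alone, and the test covered 14345 of 17362 listed genes, those whose value averaged 1 or more in the 16 pituitaries. Controls, labelled Ctrl, carried the floxed *Esr1* alleles (Esr1 fl/fl) without a Cre. Mice labelled Esr1Nkx2-1Cre mutant carried the same alleles and a Cre driven by *Nkx2-1*, so that *Esr1*, the gene for oestrogen receptor alpha (ERα), is lost from cells with a history of *Nkx2-1* expression. Both groups were fed chow, were 27 weeks old and shared a mixed CD-1;129P2 background. The other 8 mice had the same genotypes and a high-fat diet (HFD), and served here to estimate the spread between mice and for values given side by side.

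The pituitary is built from an anterior lobe of hormone cells, an intermediate lobe of melanotrophs and a posterior lobe of nerve endings and glia-like pituicytes. *Nkx2-1* is known from the ventral hypothalamus and the infundibulum, from which the posterior lobe grows, so a Cre driven by it is not a tool aimed at the hormone cells of the anterior lobe. ERα is a receptor that binds oestradiol and acts as a transcription factor, and in lactotrophs it is known for its effect on growth and on the prolactin and galanin genes. In whole-gland RNA, fewer cells of a type and less RNA per cell cannot be told apart.

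The tissue label was borne out by the hormone genes, since *Prl* alone held between 30.8% and 37.2% of the summed values in the 8 mice. The values are a normalized signal with no read counts, so the depth of the libraries is unknown. No gene above 0 had an identical value in any pair of the 8 libraries. Mutant P357 stood apart. Its mean level of melanotroph markers was 0.96 on the log2(value + 0.5) scale, against 3.6 to 4.29 in the other 7 mice, its posterior lobe marker level was 0.11 against 1.29 to 1.88, it had 533 genes listed at 0 against 120 to 310, and its mitochondrially encoded genes summed to 119409 against 32246.7 to 40706.5. All values of P357 summed to 1335782, against 910679 to 1024839 in the other 7 mice, and values were tested without rescaling. Control P356 stood apart in another way. Its gene values correlated with those of mutants P381, P382 and P384 at r of 0.954 to 0.965 across tested genes, a range that holds its values with the other controls (0.956 to 0.959), while the other controls correlated at 0.967 to 0.973 among themselves. Mutant P384 had summed lymphocyte markers of 19.7, against 1.8 to 4.59 in the other mice, and summed macrophage markers of 296, against 61.7 to 138. Nothing in the labels says whether the mice came from separate litters or were processed together, so p-values measure the spread between these mice. The part of these features in the results was not tested. How the calls moved with each mouse left out is given with the counts of genes.

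**Figure D1:**
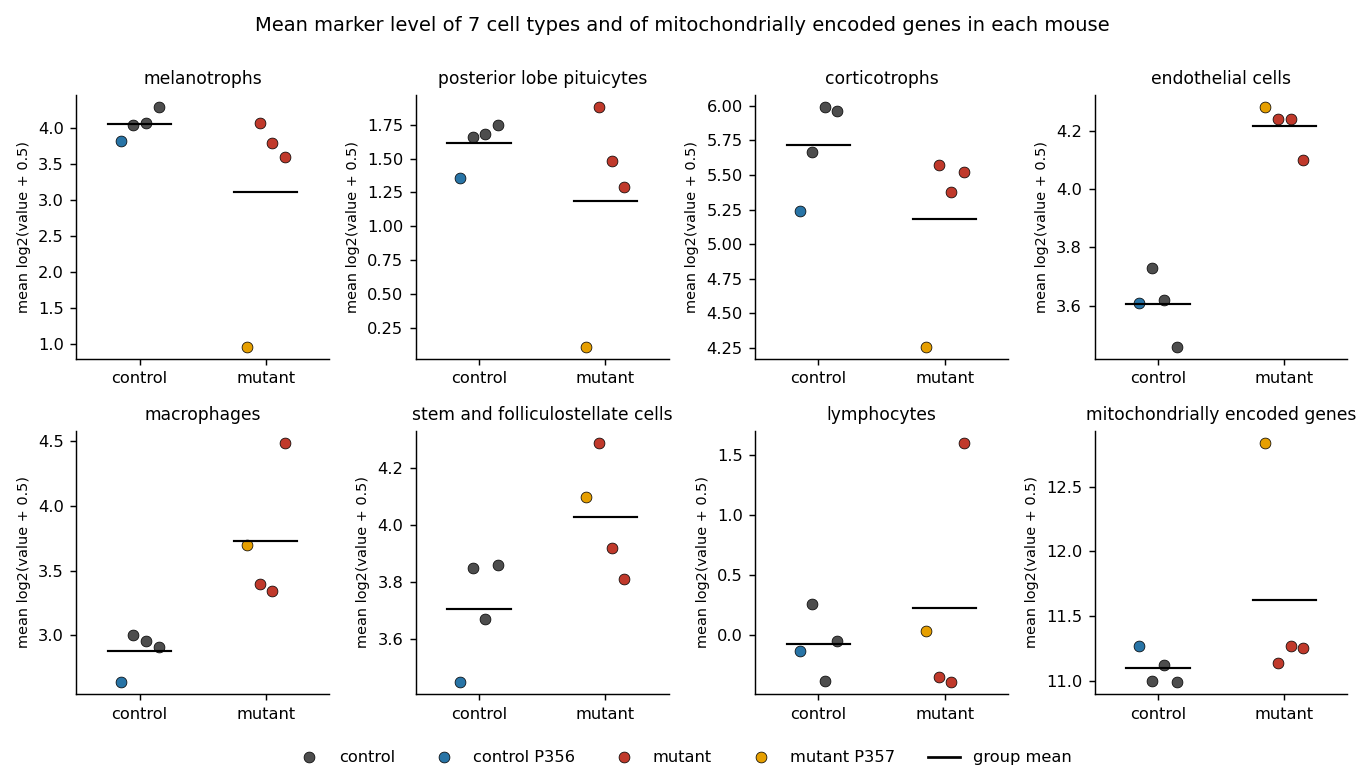
Mean log2(value + 0.5) of 7 cell type marker lists and of the mitochondrially encoded genes in each mouse on SD, with controls on the left and mutants on the right and a line at each group mean. Mutant P357 is at 0.96 for melanotrophs and 0.11 for posterior lobe pituicytes, and the 4 mutants lie between 4.1 and 4.28 for endothelial cells, above the 4 controls at 3.46 to 3.73.

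Stretches before the start of 6 genes of secreted proteins are shown here because all 6 were higher in the mutants and a neighbouring pair of them moved together. They are the 250 bases before the RefSeq start of each gene on GRCm38.p6, written 5′ to 3′ along the gene. *Prlh* (chr1:90952858-90953107, plus strand) and *Gal* (chr19:3414545-3414794, minus strand) encode the prolactin-releasing and galanin peptides. *Vip* (chr10:5638968-5639217, plus strand) encodes vasoactive intestinal peptide, and *Areg* (chr5:91139349-91139598, plus strand) encodes amphiregulin, an epidermal growth factor receptor ligand. *Areg* was chosen after its values were seen, and was at 1.62, 0, 0 and 0.219 in controls and 5.85, 3.84, 5.94 and 7.29 in mutants (adjusted p = 0.0264 by limma). Controls are given throughout in the order P356, P358, P359 and P383, and mutants in the order P357, P381, P382 and P384. *Prss28* (chr17:25308396-25308645, plus strand) and *Prss29* (chr17:25318404-25318653, plus strand) are a neighbouring pair of tryptase-like protease genes. Capitals mark matches on either strand to an oestrogen response element (GGTCA and TGACC with any 3 bases between them), its half-site (AGGTCA), a cyclic AMP response element (TGACGTCA), its half-site (TGACG), an AP-1 site (TGANTCA) or a TATA box (TATAAA). The cyclic AMP half-site lies within the full element.
Prlh: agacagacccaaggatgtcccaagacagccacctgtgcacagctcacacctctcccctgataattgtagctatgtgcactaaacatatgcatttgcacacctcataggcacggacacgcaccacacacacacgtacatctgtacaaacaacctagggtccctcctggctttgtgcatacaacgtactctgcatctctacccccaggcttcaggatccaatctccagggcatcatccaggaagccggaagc
Gal: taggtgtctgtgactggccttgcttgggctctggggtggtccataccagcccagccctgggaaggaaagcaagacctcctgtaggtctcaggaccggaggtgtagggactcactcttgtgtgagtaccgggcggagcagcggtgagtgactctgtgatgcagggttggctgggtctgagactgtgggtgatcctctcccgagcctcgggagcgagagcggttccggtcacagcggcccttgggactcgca
Vip: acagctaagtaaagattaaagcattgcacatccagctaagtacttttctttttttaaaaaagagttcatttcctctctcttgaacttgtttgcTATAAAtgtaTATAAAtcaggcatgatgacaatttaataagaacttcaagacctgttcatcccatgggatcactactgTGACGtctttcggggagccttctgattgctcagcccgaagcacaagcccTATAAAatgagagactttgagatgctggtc
Areg: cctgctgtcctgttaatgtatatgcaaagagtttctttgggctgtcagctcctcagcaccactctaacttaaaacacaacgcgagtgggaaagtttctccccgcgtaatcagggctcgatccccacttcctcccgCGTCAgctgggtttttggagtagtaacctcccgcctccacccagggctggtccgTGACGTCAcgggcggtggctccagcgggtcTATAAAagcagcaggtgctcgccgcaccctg
Prss28: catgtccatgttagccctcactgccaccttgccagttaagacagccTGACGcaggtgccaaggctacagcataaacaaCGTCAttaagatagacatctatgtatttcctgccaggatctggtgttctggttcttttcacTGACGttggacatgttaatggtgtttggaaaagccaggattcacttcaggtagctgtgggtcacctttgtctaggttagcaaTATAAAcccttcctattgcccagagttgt
Prss29: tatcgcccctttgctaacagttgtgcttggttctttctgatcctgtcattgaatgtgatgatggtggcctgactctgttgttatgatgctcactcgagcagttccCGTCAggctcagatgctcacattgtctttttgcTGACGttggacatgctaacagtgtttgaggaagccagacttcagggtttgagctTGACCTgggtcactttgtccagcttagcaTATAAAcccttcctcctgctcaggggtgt

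None of these letters occurred in the *Prlh* and *Gal* windows. The *Vip* window held a TATA box 30 bases before the start and a cyclic AMP half-site 79 bases before it. The *Areg* window held a full cyclic AMP element 61 bases before the start. That sequence was present in 1.55% of all 32851 promoter windows of this length, and in 2.99% of the 10755 tested genes with a window. *Prss28* and *Prss29* both had a TATA box 29 bases before the start, a match found in 12.4% of all windows, and their last 120 bases aligned with 75.6% identity. The other pairs aligned the same way (*Prlh* with *Gal*, *Vip* with *Areg*, *Vip* with *Prss29*) had between 43.8% and 50.0%. The *Prss29* window also held an oestrogen half-site, as did 14.0% of all windows, and the full oestrogen element, present in 0.064% of windows, was in none of the 6. A comparison of motif shares between genes that differed and other genes was not made, since 141 of the 196 higher genes had a window and too many did not. A match is a description of letters, and its use by a factor was not measured.

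*Esr1* was lower in every mutant. Its values in controls P356, P358, P359 and P383 were 40.5, 46.6, 39.4 and 29.0, and in mutants P357, P381, P382 and P384 they were 10, 22.2, 20.5 and 21.8. The groups did not overlap, and each mutant kept a clear signal, with the lowest value in P357. The difference was -1.09 on the log2 scale (SE 0.25, adjusted p = 0.0409 by limma; exact two-sided permutation p = 0.0286, the smallest that 4 against 4 allows). The call was close to the threshold and was lost with 10 of the 16 mice left out in turn, among them each SD mouse other than P356 (adjusted p between 0.0536 and 0.12 in these 10). The difference without P357 was -0.82 (adjusted p = 0.0654). *Nkx2-1* itself, the gene whose promoter drives the Cre, was near the low end of the scale, at 1.54, 1.56, 2.32 and 1.51 in controls and 0.414, 1.23, 0.897 and 1.34 in mutants, a difference of -0.64 (SE 0.37, adjusted p = 0.349).

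Among other steroid and thyroid hormone receptors, *Nr3c1*, *Nr3c2*, *Thra* and *Thrb* did not pass the test, and *Esr2*, the gene for oestrogen receptor beta, was below the filter, at 0.0799 to 0.232 in all 8 mice. *Pgr*, the progesterone receptor gene and a textbook target of ERα, had values of 17.4, 5.59, 4.56 and 5.93 in controls and 10.7, 16.3, 15.7 and 17.0 in mutants. Control P356 thus held the highest value of all. Of 10 tested oestrogen-induced genes, 1 passed the test (*Gal*, higher), with a list median of 0.11 against -0.01 over all tested genes. Without P356, 3 of the 10 were higher, *Gal*, *Pgr* (adjusted p = 0.0235) and *Greb1* (adjusted p = 0.0192), the last a coactivator gene that oestradiol is known to raise. Over all tested genes the share called higher was 3.56% without P356 and 1.37% with it.

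Over all genes, 196 of 14345 were higher in mutants (1.37%) and 68 were lower (0.474%) at an adjusted p under 0.05, 1.84% in either direction. Increases were the larger part of the calls, at 74.2%, and were also larger in size, with a median of 1.36 on the log2 scale against -0.91 for decreases, and 47 increases but 9 decreases reached 2 or -2. Over all tested genes 49.0% had a positive difference. Levels of 260 of the 264 genes did not overlap between groups, a separation seen among all tested genes in 6.09% (mutants above) and 4.5% (mutants below). By biotype 256 were protein-coding and 8 were pseudogenes. Genes with a mean under 5, from 5 to 20, from 20 to 100 and of 100 or more in the 8 mice were called higher in 1.91%, 1.49%, 0.805% and 1.36% of cases.

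The count of calls moved with single mice. Without control P356, 511 genes were higher (3.56%) and 315 lower (2.2%), and 261 of the 264 genes were among them. In those 264 genes P356 was the control nearest to the mutant mean in 59.1%, against 37.7% of all tested genes. Without mutant P357, 106 were higher (0.739%) and 28 lower (0.195%), with 101 of the 264 among them. With P358, P359, P383, P381, P382 or P384 left out, between 26 and 47 genes were higher and between 6 and 15 lower. Leaving out P392, a control on HFD that enters through the shared spread, gave 536 higher and 241 lower. In all, 27 of the 264 passed with each of the 16 mice left out in turn. Of the 81 called genes named by the rule in the methods, 11 were among these 27: *Adamts19*, *Cd36*, *Gm13502*, *Hapln1*, *Jag2*, *Msc*, *Penk*, *Rps7*, *Tubb2b*, *Vip* and *Vwc2*. When the level of intermediate and posterior lobe markers entered the model as a covariate, 33 genes were called, and all 81 kept their sign, while 13 of them passed. That marker score was 0.5 in P357 and 2.34 to 2.9 in the other SD mice. It includes *Col25a1*, itself 1 of the 81, so the covariate is not independent of the genes tested. Without P357, 32 of the 81 passed, and without P356 all 81 did. The 49 that no longer passed without P357 had adjusted p-values of 0.0503 to 0.0961 and kept between 73.6% and 110% of their difference. *Prlh*, *Prss28*, *Prss29*, *Nmb*, *Slc5a5*, *Asic4*, *Klhl1*, *Chrd*, *Cntn4*, *Chrna6*, *Chrnb3*, *Mrc1* and *Jun* were among these 49. The loss was not particular to P357, since between 13 and 21 of the 81 passed when any 1 of P358, P359, P383, P381, P382 and P384 was left out. Of the 81, 32 (39.5%, against 44.2% of all tested genes) overlap an annotated gene on the opposite strand, *Penk*, *Msc*, *Hapln1*, *Jun*, *Il4ra* and *Sfrp2* among them, and whether the counting used strand is not given in the sources used here, so such values are uncertain.

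**Figure D2:**
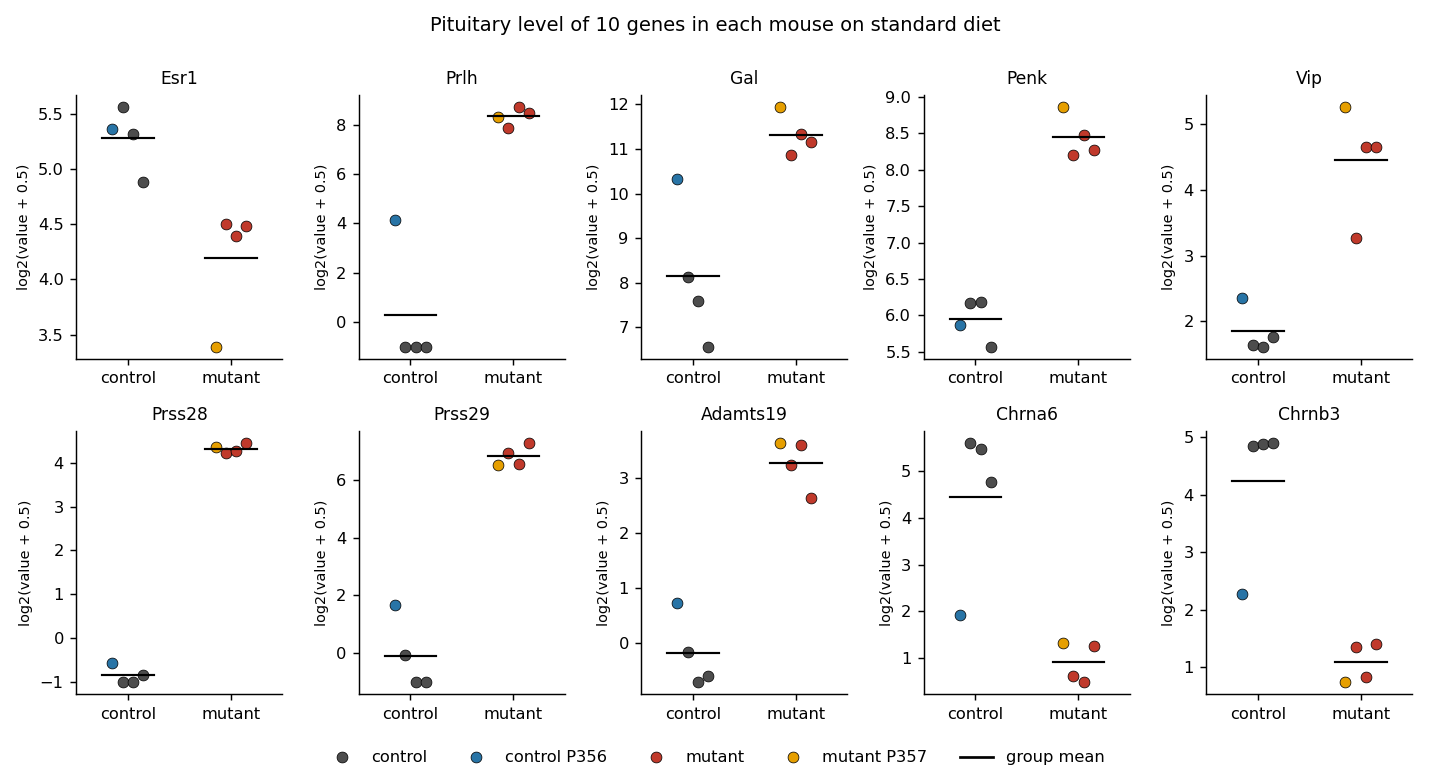
Log2(value + 0.5) of 10 genes in each mouse on SD, controls on the left and mutants on the right, with a line at each group mean and control P356 and mutant P357 in colours of their own. *Esr1* and the nicotinic receptor genes are lower in all 4 mutants, and the 7 other genes are higher in all 4. P356 is the control nearest to the mutants for every gene shown except *Esr1* and *Penk*.

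Several genes for secreted peptides were much higher in the mutants. Of 21 tested neuropeptide and peptide hormone precursors, 5 were higher and 0 lower (23.8%, against 1.84% called among all tested genes). Mutants were above all controls in 6, against 6.09% of all tested genes. *Penk*, the proenkephalin gene, had values of 58.2, 71.8, 72.0 and 47.1 in controls and between 295 (P381) and 463 (P357) in mutants. Every mutant was above every control by a wide margin, with P356 in the middle of the controls, and the difference was 2.50 (SE 0.33, adjusted p = 0.00415). *Gal*, the galanin gene, had values of 1290, 278, 193 and 94.7 in controls and 3910, 1850, 2580 and 2270 in mutants. Its controls spread widely, with P356 closest to the mutants, and the difference was 3.16 (SE 0.70, adjusted p = 0.0363; 0.0684 without P357).

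*Vip* had values of 4.65, 2.63, 2.57 and 2.91 in controls and 37.8, 9.15, 24.8 and 24.7 in mutants, so even the lowest mutant, P381, was above P356, the highest control (difference 2.61, SE 0.38, adjusted p = 0.00825). *Prlh* was listed at 0 in 3 controls and at 17.1 in P356, and between 236 (P381) and 418 (P382) in mutants. Its fitted difference of 8.07 (adjusted p = 0.0297) moved with the pseudocount, from 7.31 to 9.82, and is no measure of a fold. *Nmb*, the neuromedin B gene, went from 9.38, 5.7, 15.3 and 9.3 to 20.8, 18.0, 20.8 and 17.8, a smaller difference of 1.00 (SE 0.24, adjusted p = 0.0468). *Adcyap1*, the gene for the peptide PACAP, was listed at 0 in all 4 controls and at 0.317 to 0.996 in mutants, and did not pass the test. Genes given here without a call were chosen after their values were seen or as list members. The other 15 precursors tested, among them *Pdyn*, *Cck*, *Npff* and *Apln*, overlapped between the groups.

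Receptors for peptides and the machinery of hormone granules showed fewer calls than the precursors. The median difference, however, was 0.26 for 17 tested peptide receptors and 0.23 for the precursors. Of the 17 receptors 1 passed (5.88%, against 1.84% of all tested genes) and 13 had a positive difference. Mutants were above all controls in 4, against 6.09% of all tested genes. The called gene was *Npy1r*, a receptor gene for neuropeptide Y whose transcripts share repeated stretches with many other genes. It was at 1.13, 0.742, 0.716 and 0.753 in controls and 1.94, 3.2, 3.54 and 3.2 in mutants (difference 1.36, SE 0.29, adjusted p = 0.0311). Of 14 genes for prohormone processing and granule proteins 0 passed, against 1.84% of all tested genes. The list median was -0.21, with 3 positive differences. Mutants were above all controls in 1, against 6.09% of all tested genes, and below them in 3, against 4.5%. *Vgf*, a granule peptide precursor, had mutants above all controls (58.8 to 89.8 against 14.4 to 24.0, adjusted p = 0.116), and *Scg2*, the secretogranin II gene, was at 271 to 756 in mutants and 672 to 1660 in controls (adjusted p = 0.0786). Without P356 *Scg2* was lower (adjusted p = 0.0181 by limma), as were 2.2% of all tested genes in that fit.

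Secreted proteases and their inhibitors made up a second group with large differences. *Prss29* was at 2.71, 0.456, 0 and 0 in controls and 91.8, 122, 93.4 and 156 in mutants, and *Prss28* at 0.178, 0, 0 and 0.0562 against 20.1, 18.1, 18.7 and 21.5. Both were far lower in every control than in any mutant, with P356 the highest control for each (adjusted p = 0.0284 and 0.0297). They lie next to each other in chr17:25308646-25322684 and share the start-site letters shown above. *Spink4*, a Kazal-type protease inhibitor gene, was at 2.49, 0, 0 and 1.81 in controls and 43.0, 19.6, 9.97 and 14.9 in mutants (adjusted p = 0.0184). *Serpinb8*, an intracellular serpin, was lower, by -1.10 (SE 0.22, adjusted p = 0.0283). Of 16 tested serine proteases 2 were higher (12.5%), and of 20 inhibitors 1 was higher and 1 lower (10%), against 1.84% of all tested genes. *Adamts19*, a secreted metalloprotease gene, was at 1.15, 0.396, 0.112 and 0.163 in controls and 12, 8.88, 11.6 and 5.71 in mutants (difference 3.46, SE 0.46, adjusted p = 0.00415 by limma). It was the 1 call among 33 metalloproteases (3.03%), a share near the 1.84% of all tested genes.

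*Prss28* with *Prss29* was 1 of 9 pairs of called genes that are next to each other among the listed genes. Both members moved in the same direction in all 9, up in 6 and down in 3. The nicotinic receptor genes *Chrnb3* and *Chrna6* (chr8:27368711-27413944) were another such pair, as were *Edil3* and *Hapln1* (both lower) and *Mlph* and *Prlh* (both higher). The pairs were noted after their values were seen.

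A pair of nicotinic receptor subunits was among the largest decreases. These proteins form channels opened by acetylcholine. *Chrna6* was at 3.3, 48.6, 44.3 and 26.8 in controls and 2.01, 1.02, 0.898 and 1.87 in mutants, and *Chrnb3* at 4.36, 28.4, 29.1 and 29.4 against 1.18, 2.06, 1.29 and 2.14. In both, 3 controls were far above the mutants and P356 was just above them. The differences were -3.54 (SE 0.85, adjusted p = 0.0456 by limma) and -3.15 (SE 0.71, adjusted p = 0.0388). Without P356, the control nearest to the mutants, the adjusted p was 0.00727 and 0.00745. Both calls were lost with any other single SD mouse left out. The adjusted p was then between 0.0667 and 0.139 for *Chrna6* and between 0.0675 and 0.12 for *Chrnb3*. The other 4 of 6 tested subunits did not pass, 3 of the 6 had a positive difference, and the median of the family was -0.02. The 2 calls were 33.3% of the family, against 1.84% of all tested genes.

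Other ion channels and transmitter receptors moved in both directions. Of 55 potassium channel genes and regulators 4 were higher and 0 lower (7.27%, against 1.84% of all tested genes). They were *Kcnt1* and *Kcnt2*, which encode sodium-activated channels (differences 1.79 and 1.41), *Kcnab1*, an auxiliary beta subunit (1.37), and *Kcnh4* (1.28). *Kcnt1* was at 116, 35.6, 34.8 and 31.5 in controls and 216, 132, 195 and 121 in mutants. Its lowest mutant was just above P356. The median over the 55 was -0.20, with 23 positive differences. Mutants were above all controls in 10 members, against 6.09% of all tested genes, and below them in 5, against 4.5%. Of 14 glutamate receptor genes 1 was higher (7.14%, against 1.84% of all tested genes). It was the metabotropic *Grm7*, at 0.234 to 0.513 in controls and 0.938 to 4.74 in mutants. Mutants were below all controls in 4 of the 14, against 4.5% of all tested genes. *Asic4*, an acid-sensing channel family gene, fell from 30.0, 30.2, 45.7 and 54.2 to 5.33, 8.96, 6.79 and 10.2 (difference -2.28, SE 0.50, adjusted p = 0.0336).

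Growth factor and developmental signalling genes were among the calls in small numbers. In the insulin-like growth factor axis 2 of 10 tested genes were higher (20%, against 1.37% of all tested genes), and the list median was 0.47. Mutants were above all controls in 5, against 6.09% of all tested genes, and below them in 1, against 4.5%. *Igfbp5*, which encodes a secreted binding protein, rose from 178, 196, 167 and 163 to 259, 296, 283 and 276 (difference 0.66, SE 0.15, adjusted p = 0.0382). *Igfbp3* rose from 48.3, 17.5, 22.6 and 20.3 to 83.1, 80.3, 104 and 103 (difference 1.86, SE 0.38, adjusted p = 0.0264). The groups were apart in both genes, and P356 stood above the other controls for *Igfbp3* but not for *Igfbp5*. *Ret*, a receptor tyrosine kinase gene, was at 7.35, 0.461, 0.974 and 0.761 in controls and 7.78, 20.2, 21.2 and 20.7 in mutants (adjusted p = 0.0369), and there P356 and P357 were nearly equal.

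In the Notch group, 2 of 14 genes were higher (14.3%, against 1.37% of all tested genes). They were the ligand *Jag2* (14.3 to 31.4 in controls and 51.8 to 71.0 in mutants) and the target *Hes1* (7.47 to 11 against 12.8 to 22.0). Mutants were above all controls in 5 of the 14, against 6.09% of all tested genes. *Jag2* differed by 1.63 (SE 0.26, adjusted p = 0.00962) and *Hes1* by 0.83 (SE 0.18, adjusted p = 0.0363). The Wnt modulator *Sfrp2* (difference 2.22, adjusted p = 0.0142 by limma) and the receptor *Fgfr1* (0.84, adjusted p = 0.0264) were the calls among 23 Wnt and 13 fibroblast growth factor genes. These single calls were 4.35% and 7.69% of the Wnt and fibroblast growth factor genes, against 1.84% of all tested genes. *Chrd*, the gene for the secreted BMP antagonist chordin, was lower, at 12.9, 27.1, 26.9 and 24.5 in controls and 5.96, 8.47, 5.47 and 7.12 in mutants (difference -1.65, SE 0.34, adjusted p = 0.0284). Of the 19 activin, inhibin and BMP genes in the list used, which does not hold *Chrd*, 0 passed. Among 16 immediate early genes named, 15 were tested and *Jun* was higher (8.06 to 13.2 against 20.5 to 41.1), with P384 the highest. *Jun* was the 1 call of the 15 (6.67%, against 1.84% of all tested genes).

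Matrix and adhesion genes leaned in opposite ways. Of 45 collagen and laminin genes 2 were higher (4.44%, against 1.84% of all tested genes), *Lamb3* (difference 1.52, adjusted p = 0.0336 by limma) and *Col25a1* (1.00, adjusted p = 0.0321). Mutants were above all controls in 12, against 6.09% of all tested genes, and below them in 1, and the median was 0.47. Of 70 cadherins and protocadherins 1 was higher (1.43%, against 1.84% of all tested genes), *Cdh3* (1.09, adjusted p = 0.0348 by limma). Mutants were below all controls in 15, against 4.5% of all tested genes, and above them in 2, with a median of -0.44. The median of the cadherins was -0.24 without P357, and it was -0.0029 on HFD. *Hapln1*, which encodes a link protein of hyaluronan matrix, was lower, at 5.71, 15, 18.1 and 11.9 in controls and 1.34, 1.71, 2.14 and 2.0 in mutants (difference -2.42, SE 0.40, adjusted p = 0.0105). Contactin genes act in neuronal adhesion, and *Cntn4* fell from 1.24, 5.46, 5.12 and 4.2 to 0.327, 0.65, 0.542 and 0.457 (adjusted p = 0.0336), whereas *Cntnap2* and the leucine-rich repeat gene *Lrrc17* rose by 0.82 and 0.81. Among guidance genes *Sema5b* and *Robo3* were higher and *Unc5a*, a netrin receptor gene, lower.

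**Figure D3:**
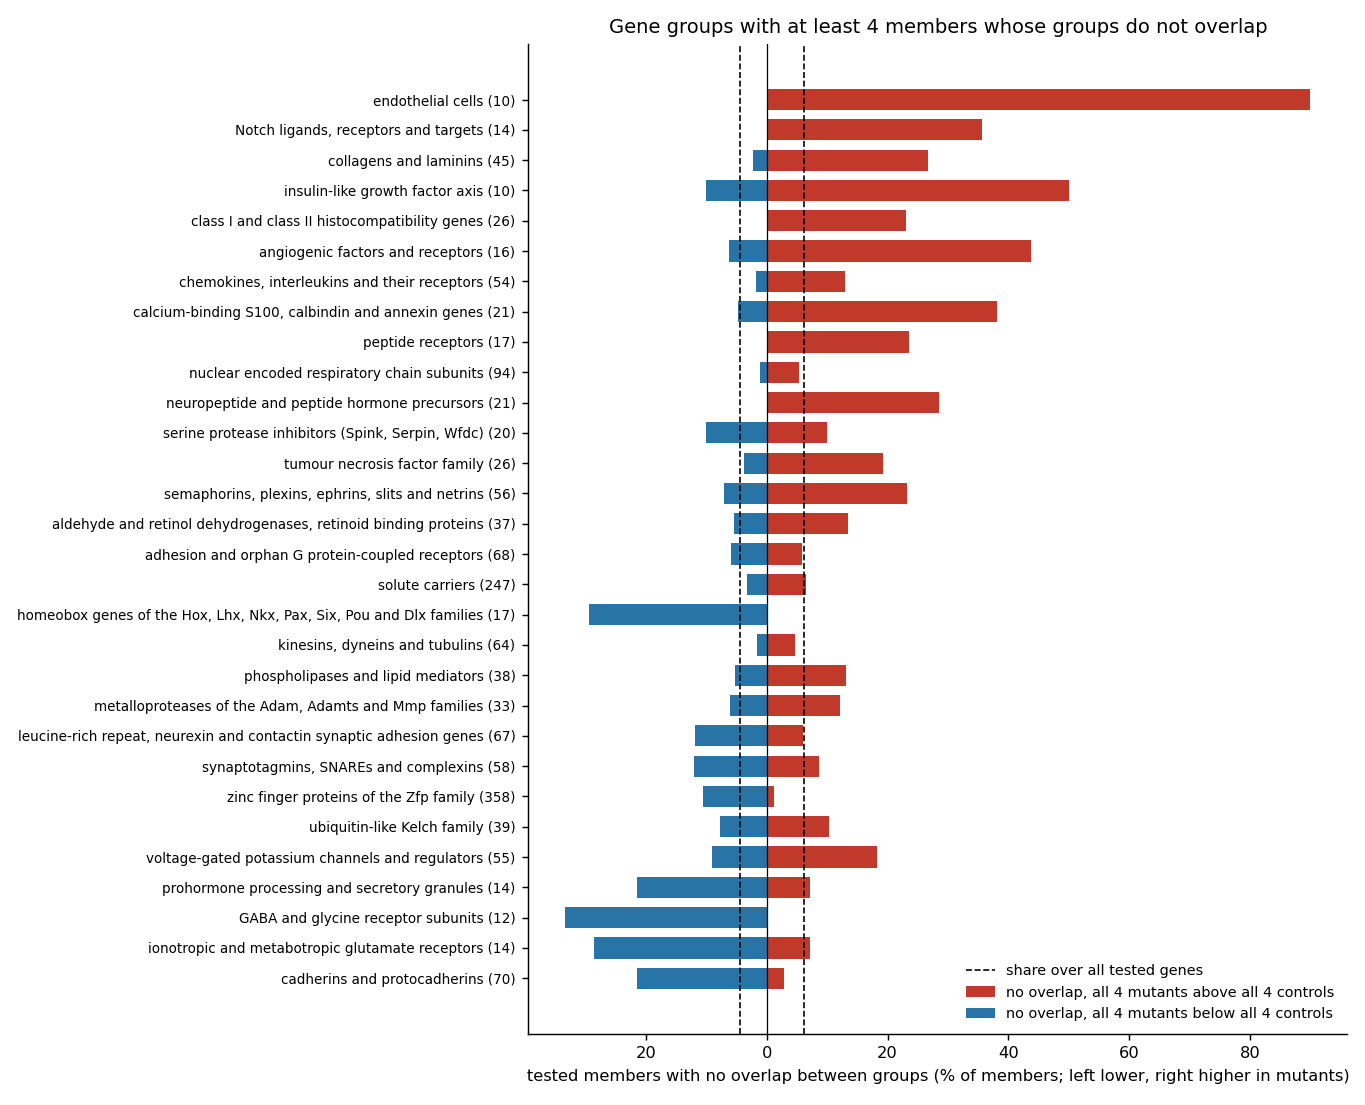
Share of the tested members of each gene group whose 4 mutants all lay above (right) or below (left) the 4 controls, for groups of at least 10 tested members with at least 4 such members, with the number tested in brackets and dashed lines at the shares over all tested genes (6.09% and 4.5%). Endothelial markers reach 9 of 10 on the right, and cadherins 15 of 70 on the left.

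Single transport and metabolism genes were also among the larger increases. Of 247 solute carrier genes matched by name 4 were higher and 1 lower (2.02%), a share near the 1.84% of all tested genes. *Slc5a5*, the sodium iodide symporter gene, was at 1.21, 0.435, 0.464 and 0.464 in controls and 13.3, 10.4, 14.5 and 7.06 in mutants (difference 3.37, SE 0.69, adjusted p = 0.0284). *Slc38a5* and *Slc16a12*, genes for amino acid and monocarboxylate family carriers, rose by 2.68 and 2.47, and *Slc9a3r1*, a scaffold protein gene that shares the name stem, by 0.82. The mitochondrial carrier *Slc25a13* fell by 0.95. *Cd36*, a fatty acid transporter and scavenger receptor gene, was at 2.76, 1.52, 0.923 and 0.963 in controls and 10.6, 40.5, 21.6 and 15.9 in mutants (difference 3.39, SE 0.56, adjusted p = 0.0105). *Alpl*, the gene for tissue-nonspecific alkaline phosphatase, was at 0.536 to 2.07 in controls and 8.26 to 25.5 in mutants (adjusted p = 0.0191). Among 38 phospholipase and lipid mediator genes *Ptgs1*, which encodes cyclooxygenase 1, was higher and *Alox12e*, a lipoxygenase gene, lower (5.26%, against 1.84% of all tested genes). For *Alox12e*, however, control P383 (2.18) overlapped the mutants (0.859 to 3.99). Among 21 transferases *Gsto2* and *Gstm2* were higher (9.52%, against 1.84% of all tested genes).

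Transcription factors, cytoskeletal and synaptic genes completed the calls of the named groups. *Msc*, a basic helix-loop-helix repressor gene, was at 2.75, 1.5, 1.65 and 0.806 in controls and 16, 18.0, 19.6 and 11.3 in mutants (difference 2.99, SE 0.40, adjusted p = 0.00415). *Tubb2b*, a beta tubulin gene, was at 4.5 to 7.78 in controls and 13.8 to 16.2 in mutants (difference 1.24, SE 0.17, adjusted p = 0.00415), with all mice of each group close together. *Ppp1r1c*, an inhibitor subunit gene of protein phosphatase 1, was at 3.43, 0.75, 0.675 and 0.456 in controls and 12, 23.8, 17.9 and 11.9 in mutants (difference 3.40, SE 0.61, adjusted p = 0.0164). *Vwc2*, which encodes a secreted modulator of BMP signalling, was at 0 to 0.143 in controls and 2.7 to 5.57 in mutants (adjusted p = 0.00954). *C130060K24Rik* and *Golt1a* were also among the 15 largest increases (3.03 and 3.01). *Syt5* and *Snap91*, which act in vesicle release and recycling, rose by 0.63 and 0.53, and *Sytl1* fell by 0.62. *Klhl1*, a Kelch-like gene, fell from 1.04, 7.13, 10.7 and 2.8 to 0.0957, 0.185, 0.102 and 0.315 (adjusted p = 0.0317), and *Klhl40* rose (adjusted p = 0.0409). Sialyltransferase *St6gal2* fell from 3.09, 3.23, 3.69 and 4.24 to 0.784, 0.788, 0.74 and 0.83 (difference -1.65, SE 0.29, adjusted p = 0.016), with both groups tight. The rest of the 15 largest decreases were *Lrp2bp* (-1.94), *B4galnt3* (-1.87), *Cpne5* (-1.82), *Syndig1* (-1.69), *Sntb1* (-1.64) and the processed pseudogenes *Gm14472* (-3.20) and *Gm13502* (-2.77), which share sequence with 6 and 3 other genes. Further single calls were *Il4ra* (higher) and *Ccr10* (lower) among 54 chemokine and interleukin genes (3.7%, against 1.84% of all tested genes). Others were *Tnfrsf12a*, *Itga6*, *Krt8*, *Cldn23* and *Anxa2* (all higher), and *Gpr179* and *S100pbp* (both lower). *S100pbp* was matched by its name stem and is not an S100 gene.

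Markers of the hormone cells did not pass the test. Across 6 lists for lactotrophs, somatotrophs, gonadotrophs, thyrotrophs, corticotrophs and melanotrophs, 0 of 23 tested genes were called. That is near the 1.84% called among all tested genes, so with so few markers it does not show that these cells were unchanged. *Prl* was at 314000, 285000, 331000 and 304000 in controls and 497000, 303000, 346000 and 348000 in mutants (difference 0.25, SE 0.51), and *Gh* at 51700 to 88700 and 54100 to 95100. As a share of all summed values *Prl* was 37.2% in P357, 31.8% to 35.4% in the other mutants and 30.8% to 33.9% in controls. *Drd2*, the dopamine receptor gene of lactotrophs, was at 52.5, 61.8, 67.4 and 69.7 in controls and 12.4, 42.6, 33.7 and 43.3 in mutants, with no overlap but an adjusted p of 0.11. *Lhb* (0.775), *Fshb* (0.624), which encode gonadotrophin subunits, *Tshb* (0.707) and *Trhr* (0.888) had the adjusted p-values in brackets. *Pomc*, the precursor gene of corticotrophs and melanotrophs, was at 11500 to 17400 in 7 mice but at 1650 in P357. Melanotroph markers had a median difference of -1.05, which was -0.25 without P357 and 0.52 on HFD. The 4 corticotroph markers, *Crhr1* and *Avpr1b* among them, had a median of -0.51, and -0.23 without P357.

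Vascular and immune markers leaned upwards in the mutants. All 10 endothelial genes had a positive difference (median 0.60, range 0.45 to 0.77), and 0 passed the test. Mutants were above all controls in 9 of the 10, against 6.09% of all tested genes. *Pecam1*, an endothelial junction gene, was at 8.54, 9.81, 7.69 and 6.72 in controls and 10.7, 12.1, 13.4 and 14.5 in mutants (adjusted p = 0.101), and *Cdh5*, the gene for VE-cadherin, at 5.73 to 8.26 and 11.3 to 12.6 (adjusted p = 0.0696). The median was 0.59 without P357 and 0.58 without P356. Without P356 1 of the 10 was higher, against 3.56% of all tested genes in that fit. It was *Egfl7*, which encodes a secreted endothelial protein (adjusted p = 0.04 by limma). On HFD the median of the same genes was 0.51. Of 16 angiogenic factors and receptors 0 passed. Mutants were above all controls in 7, against 6.09% of all tested genes, and below them in 1, against 4.5%. *Vegfa* was at 79.1, 32.6, 44.5 and 44.5 in controls and 126, 116, 123 and 102 in mutants (adjusted p = 0.0673), and *Angpt1*, an angiopoietin gene, at 23.6, 63.2, 57.3 and 77.2 against 14.5, 19.6, 17.0 and 22.8 (adjusted p = 0.051). P356 was the control nearest to the mutants for both, so leaving it out widens both differences by construction. Without it both passed by limma (adjusted p = 0.0238, higher, and 0.00727, lower). In that fit 3.56% of all tested genes were higher and 2.2% lower. The mural marker *Rgs5* was at 18.4 to 33.5 and 59.6 to 74.8 (adjusted p = 0.0905).

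Of 9 macrophage markers, *Mrc1*, a mannose receptor gene, was higher (0.665, 1.05, 0.842 and 1.13 in controls and 2.26, 2.22, 2.57 and 2.72 in mutants, difference 1.06, SE 0.23, adjusted p = 0.0336). All 9 had a positive difference, with a median of 0.86, and 4 had mutants above all controls, against 6.09% of all tested genes. The 1 call was 11.1% of the list, against 1.84% of all tested genes. *Csf1r* (adjusted p = 0.347 by limma) and *C1qa* (0.158) were highest in P384. Erythroid genes had a median of 1.32 with 0 of 5 called, and their summed values overlapped, at 581 to 3250 in controls and 2250 to 4660 in mutants. Their share in the other differences was not tested. The 6 lymphocyte genes, *Cd3e* and *Cd79a* among them, were below the filter. Of 26 histocompatibility genes 0 were called and 6 had mutants above all controls, against 6.09% of all tested genes.

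Stem and folliculostellate markers had 6 of 6 positive differences with a median of 0.30 on SD, -0.0029 on HFD, and 0 calls. *Sox2*, a stem cell factor gene, was at 14.6 to 20.5 in controls and 16.9 to 24.1 in mutants (adjusted p = 0.292), and *Aldh1a2*, which encodes a retinoic acid synthesizing enzyme, at 23.9 to 27.7 and 34.4 to 59.7 (adjusted p = 0.053). In the posterior lobe list *Col25a1* was higher, the 1 call of 6 genes (16.7%, against 1.84% of all tested genes). The pituicyte factor *Rax* was at 0 in P357 and 1.05 to 2.03 in the other mutants against 1.6 to 3.43 in controls. *Col25a1* was at 13.9 in P357, whose mean over the list was 0.11. Hypothalamic neuron genes gave 3 tested members and 0 calls, and their mean level was 0.36 in P357, below the 1.54 to 2.7 of the remaining 7.

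**Figure D4:**
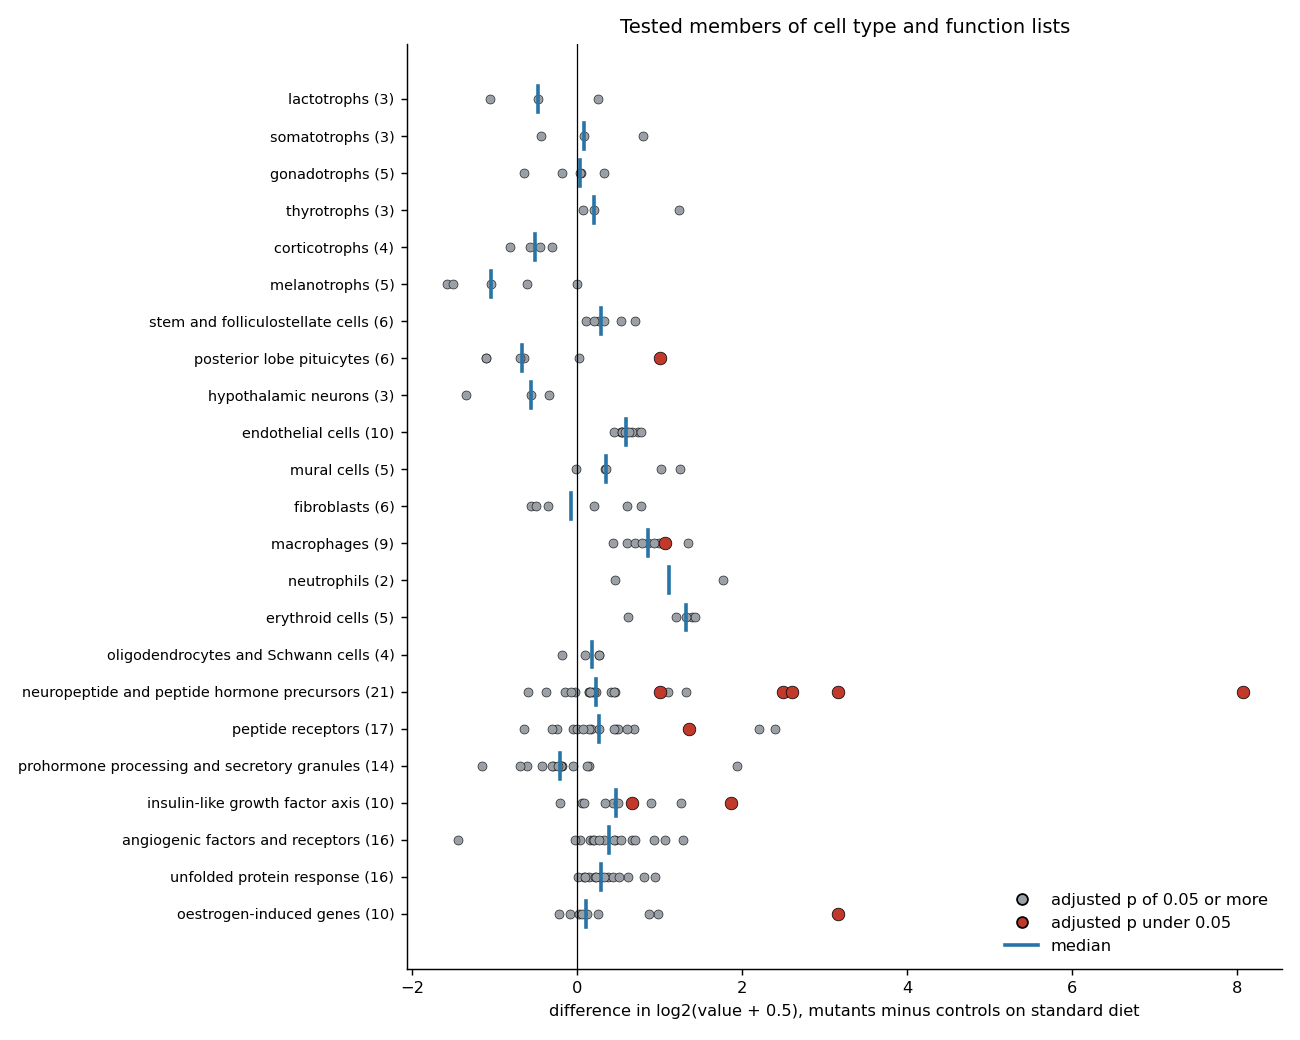
Difference in log2(value + 0.5) between mutants and controls on SD for each tested member of the cell type lists and of 7 function lists, with a bar at the list median and the number tested in brackets. Red points passed the test, and 5 of the 21 peptide precursors are red, whereas all 10 endothelial genes are grey and to the right of 0.

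Large housekeeping groups showed small shifts with few calls. Of 78 cytosolic ribosomal protein genes 68 had a positive difference (87.2%), with a median of 0.19, and 0.11 without P357. Mutants were above all controls in 3, against 6.09% of all tested genes. The 1 called gene (1.28%, against 1.84% of all tested genes) was *Rps7*. It was at 77.0, 37.7, 50.5 and 47.2 in controls and 456, 354, 399 and 312 in mutants (difference 2.86, SE 0.45, adjusted p = 0.00962 by limma). *Rps7* shares stretches of at least 90% identity over 100 bases or more with 26 other annotated genes, so its value is uncertain. Of 94 nuclear-encoded respiratory chain genes 82 were positive (median 0.24, 0 called), and without P357 the median was 0.13. The 13 mitochondrially encoded genes had a median of 0.56, and 0.15 without P357. All 16 genes of the unfolded protein response were positive with a median of 0.29 (0.30 without P357) and 0 calls, led by *Trib3* (0.95, adjusted p = 0.0607). The zinc finger genes of the Zfp family leaned down, with 75 positive differences (20.9% of those tested, against 49.0% of all tested genes). Mutants were below all controls in 38 of them, a larger share than the 4.5% of all tested genes. They were above all controls in 4, a smaller share than the 6.09% of all tested genes. The Zfp family had 0 calls and a median of -0.17 (-0.15 without P357). On HFD the medians were -0.11 for ribosomal, -0.01 for respiratory chain, 0.09 for mitochondrially encoded, 0.06 for unfolded protein response and -0.08 for Zfp genes. The 17 tested cell cycle genes, 15 cholesterol genes and 18 clock genes had 0 calls.

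On HFD, in 8 other mice, most of the same genes had differences of the same sign and smaller size. Of the 196 genes higher on SD, 185 were also higher on HFD, where 53.9% of all tested genes were positive, with a median difference of 0.77 against 1.36. Of the 68 lower on SD, 64 were also lower on HFD, where 46.1% of all tested genes were negative, with a median of -0.36 against -0.91. By themselves the HFD mice gave 0 calls (0.0%) in limma, with 1461 genes at an unadjusted p under 0.05. *Penk* differed by 1.47 on HFD and 2.50 on SD, *Gal* by 1.83 and 3.16, *Chrna6* by -2.54 and -3.54, and *Prss29* by 5.84 and 6.92. *Esr1* differed by -0.34 on HFD and -1.09 on SD. *Msc* differed by 0.76 on HFD and 2.99 on SD, and *Alox12e* by 0.01 and -2.64. The interaction of genotype and diet passed for 0 genes (0.0%), with 602 at an unadjusted p under 0.05, 57 of them among the 264, where the smallest adjusted p was 0.152. These genes were chosen for their difference on SD, so a smaller value on HFD is not by itself a difference between diets.

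**Figure D5:**
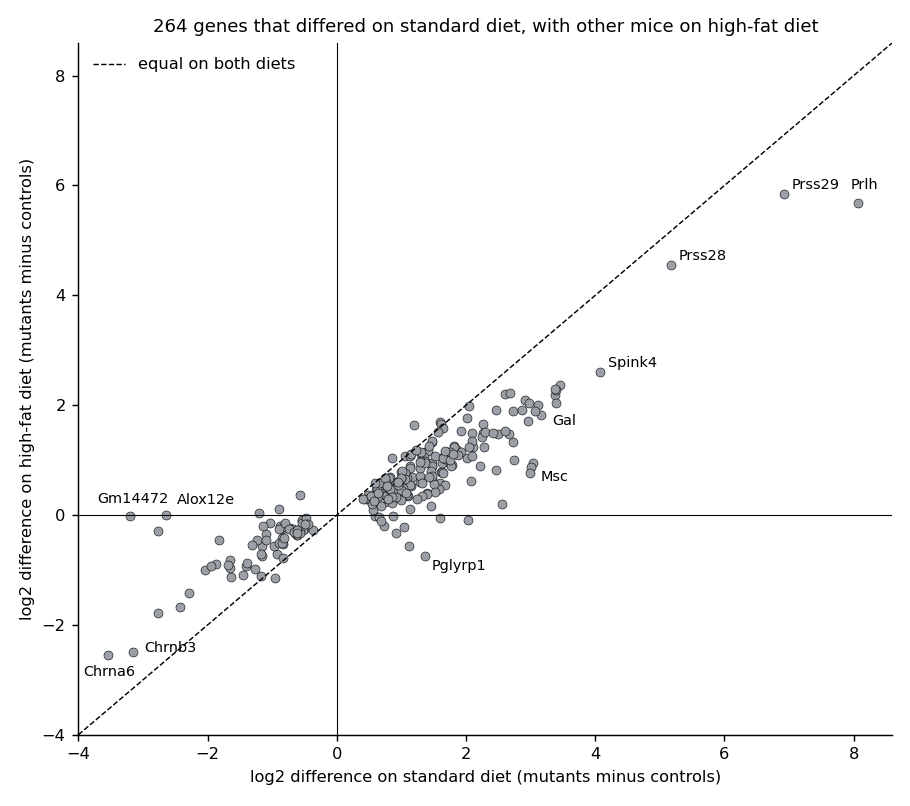
Difference in log2(value + 0.5) between mutants and controls on HFD (vertical axis) against that on SD (horizontal axis) for the 264 genes called on SD, each axis from its own 8 mice, with a dashed line of equal differences. Most points lie on the same side of 0 on both axes and nearer to 0 on HFD, and *Pglyrp1* (1.36 on SD, -0.74 on HFD) is one of the few on opposite sides.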

How the data were processed

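Total RNA of 16 pituitaries, 1 mouse each, was sequenced. The deposited values are a normalized signal per gene and mouse that the authors made from their reads. The paper's methods and the submitters' processing notes name kallisto, sleuth and mm10, while versions and the scaling are not given in the sources used here. No read counts were used, so depth is unknown and no counting interval was made. Groups came from the genotype and diet labels. Genes averaging 1 or more across the 16 mice were tested on log2(value + 0.5), on which differences of low genes are understated, by limma 3.58.1 (R 4.3.3) with 4 group means, a variance trend and Benjamini-Hochberg adjustment over all tested genes, at 0.05. The script was tested on simulated data. Exact permutation tests were two-sided. The text names *Esr1* and *Nkx2-1*, the 15 largest increases and decreases without overlap, every called member of a list or family, and the first measured markers of each cell type. Some genes under this rule are not reported here. Members and lists were chosen with earlier results of these data known, and families were matched by symbol, so some members share a name stem alone. Genes sharing stretches of 100 bases at 90% identity were found by BLAST 2.17.0. Promoter windows were taken from RefSeq (GRCm38.p6). Alternatives were other scalings, filters, pseudocounts, covariates and thresholds, and leaving out each mouse. Tables were handled with pandas 2.3.3 and plotted with matplotlib 3.10.9.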

Additional observations from a re-analysis of the deposited data

Results flagged for a closer look

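In 142 groups of 4 mice, 19 had a single mouse at a distance from its group (Dixon's test, critical value 0.829), where chance gives about 1 in 20 groups, or 7.1. Mutant P357 gave 10 of them. It had *Esr1* at 10 (20.5 to 22.2 in the other mutants), *Ret* at 7.78 (20.2 to 21.2), 533 genes listed at 0 (168 to 199) and mitochondrially encoded genes summing to 119409 (36350.4 to 40706.5). Its mean log2 levels were 4.26 for corticotroph markers (5.38 to 5.57), 0.96 for melanotroph markers (3.6 to 4.07), 0.36 for hypothalamic neuron markers (2.25 to 2.59), 3.12 for steroid and thyroid hormone receptors (3.73 to 3.81), 3.17 for angiogenic genes (3.47 to 3.5) and 12.84 for mitochondrially encoded genes (11.14 to 11.27).

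Control P356 gave 6. It had *Prlh* at 17.1 (listed at 0 in the others), *Slc5a5* at 1.21 (0.435 to 0.464), *C130060K24Rik* at 2.01 (0.0689 to 0.137), *Chrnb3* at 4.36 (28.4 to 29.4) and *Chrd* at 12.9 (24.5 to 27.1), and a mean log2 level of oestrogen-induced genes of 5.95 (5.34 to 5.42). The others were *Nkx2-1* at 2.32 in control P359 (1.51 to 1.56), *Gm14472* at 2.19 in mutant P382 (listed at 0 in the others), and JAK-STAT feedback genes at a mean log2 level of 5.21 in mutant P384 (4.79 to 4.82).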

How the results depend on the processing

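Against 196 genes higher and 68 lower, a mean of at least 5 gave 109 and 42, the lobe marker score as covariate 26 and 7, a threshold of 0.01 17 and 3, and leaving out both P356 and P357 584 and 360. The range of animal numbers as covariate gave 111 lower genes. Leaving out 1 mouse gave between 26 and 536 higher genes and between 6 and 315 lower genes. Median scaling, quantile normalization, a filter of 0.1, no filter, pseudocounts of 0.1 and 1, no variance trend and a fit of the 8 SD mice alone stayed within 1.5 times for both directions. The interaction of genotype and diet gave 0 genes in limma under these settings and 0 to 1 with 1 mouse left out, the 1 coming without P383. *Esr1* stayed negative throughout. It no longer passed in the fit of the 8 SD mice (-1.09), with the animal number range (-1.13), with the lobe score (-0.92), at 0.01 (-1.09) or without P356 and P357 (-0.80), and lay between -1.22 and -0.82 with 1 mouse left out, where the call was lost in 10 of 16 fits (adjusted p between 0.0536 and 0.12 by limma). Of 1016 values of the 80 other named genes under other settings 226 lost their call and 0 changed sign, and of 1280 values with 1 mouse left out 550 lost it and 0 changed sign. The causes were not tested. No paired analysis was possible because the labels give the groups no shared replicate numbers. The depth of the libraries is unknown, so no limit of detection can be given for genes listed at 0.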
